A study of Homo sapiens with 6 samples.

Results

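The dual-specificity MAPK phosphatases were examined in RNA-SEQ libraries of NALM6 cells, a human line that was grown from a leukemia of precursor B lymphocytes. The 9 genes DUSP1, DUSP2, DUSP4, DUSP5, DUSP6, DUSP7, DUSP8, DUSP10 and DUSP16 were taken by symbol and Ensembl identifier, out of 57905 genes in the count table, and 8 of them passed the filter on low counts. The libraries came from cells kept for 24 h either with the solvent DMSO (n = 3) or with 500 nM of THZ1 (n = 3), a covalent inhibitor of CDK7, the kinase of the transcription factor TFIIH that phosphorylates RNA polymerase II. The labels name no genetic difference between the groups. The labels do not say that the replicates came from separate cultures, so p-values measure the spread between these libraries, which may be technical.

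These phosphatases remove phosphate from both the threonine and the tyrosine of the activation loop of a MAP kinase (ERK, JNK or p38) and so switch it off. The nuclear members DUSP1, DUSP2, DUSP4 and DUSP5 are early response genes that growth factors and stress induce, DUSP6 and DUSP7 are cytoplasmic and prefer ERK, and DUSP8, DUSP10 and DUSP16 prefer JNK and p38. Several are transcribed in response to the kinases that they switch off, which makes them negative feedback regulators, and the DUSP1 and DUSP6 messages are known to be short-lived.

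The DMSO-treated libraries summed to 11015480 to 11164840 counts over all genes, and those with THZ1 to 7876402 to 8314306, so every THZ1-treated library was shallower. Levels are given as CPM (each count over the TMM-scaled total of its library), and 3 counts, taken as the floor, equal 0.246 to 0.253 CPM with DMSO and 0.394 to 0.415 CPM with THZ1. Of 10 genes that mark B cell precursors, all were tested, and 2 were higher, 7 lower and 1 not called with THZ1, from 1.33 for CD79A to a log2 fold change of −2.26 for IGLL1. Over all genes tested, 43.5% were higher and 41.1% lower. Of 9 T cell and myeloid markers, 4 were tested, and the summed level of all 9 was 3.97 to 4.80 CPM with DMSO and 19.1 to 20.3 CPM with THZ1. The T cell genes CD3D, CD3E, CD3G and CD2 were near 0 in both treatments, whereas the myeloid genes CD14 (0.636 ± 0.0885 to 8.72 ± 1.10 CPM, SD, n = 3) and CSF1R (2, 1 and 1 counts with DMSO; 60, 39 and 37 with THZ1) rose. LYZ had 2.65, 3.03 and 1.77 CPM with DMSO and 0.920, 0.969 and 2.27 with THZ1, and its call as lower (log2 fold change −0.83, edgeR's adjusted p = 0.0353) was lost with upper quartile factors (adjusted p = 0.105). MPO was not called (0.16, adjusted p = 0.721), and ITGAM, not tested, had 2, 0 and 0 counts with DMSO and 4, 13 and 22 with THZ1. The part of these markers in the results was not tested. No spike-in is named in the sources used here, so levels are relative to the rest of the library, and fewer cells of a kind and less RNA per cell cannot be told apart.

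With THZ1, 4 of the 8 members tested were higher (DUSP2, DUSP4, DUSP5 and DUSP7), 1 was lower (DUSP1) and 3 were not called (DUSP6, DUSP10 and DUSP16), at an adjusted p below 0.05 in edgeR's quasi-likelihood test over all 16622 genes tested. Across all genes tested, 43.5% were higher and 41.1% lower (84.6% either way), and the 5 of 8 members called are read against that share. The libraries of the treatments did not overlap for 6 of the 8 members, against 84.7% of all genes tested. With a log2 fold change of at least 1.5 required as well, DUSP5 alone stayed among the members, higher with THZ1, where 24.6% of genes were higher and 12.9% lower. From the counts, the median log2 fold change was 0.44 over the 8 members and 0.03 over all genes. In the deposited FPKM values, 3 members were called higher and 3 lower by limma, and the median over all genes was −0.15. DUSP1, DUSP4, DUSP10 and DUSP16 were below that median, and DUSP2, DUSP5, DUSP6 and DUSP7 above it. The offset of the members from all genes was thus not seen in those values. The split of the 8 members was 6 higher and 0 lower with upper quartile factors, 5 and 0 with RLE factors, and 3 and 2 with library sizes alone. Over all genes it was 7978 higher and 5977 lower, 7452 and 6548, and 6317 and 7982 in the same order. The split of all genes thus moved the same way as that of the members. These scalings shifted the median of all genes by 0.07 (RLE factors), 0.19 (upper quartile factors) and −0.25 (library sizes alone), and the last of these is larger than the changes measured for DUSP1 and DUSP6.

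**Figure D1:**
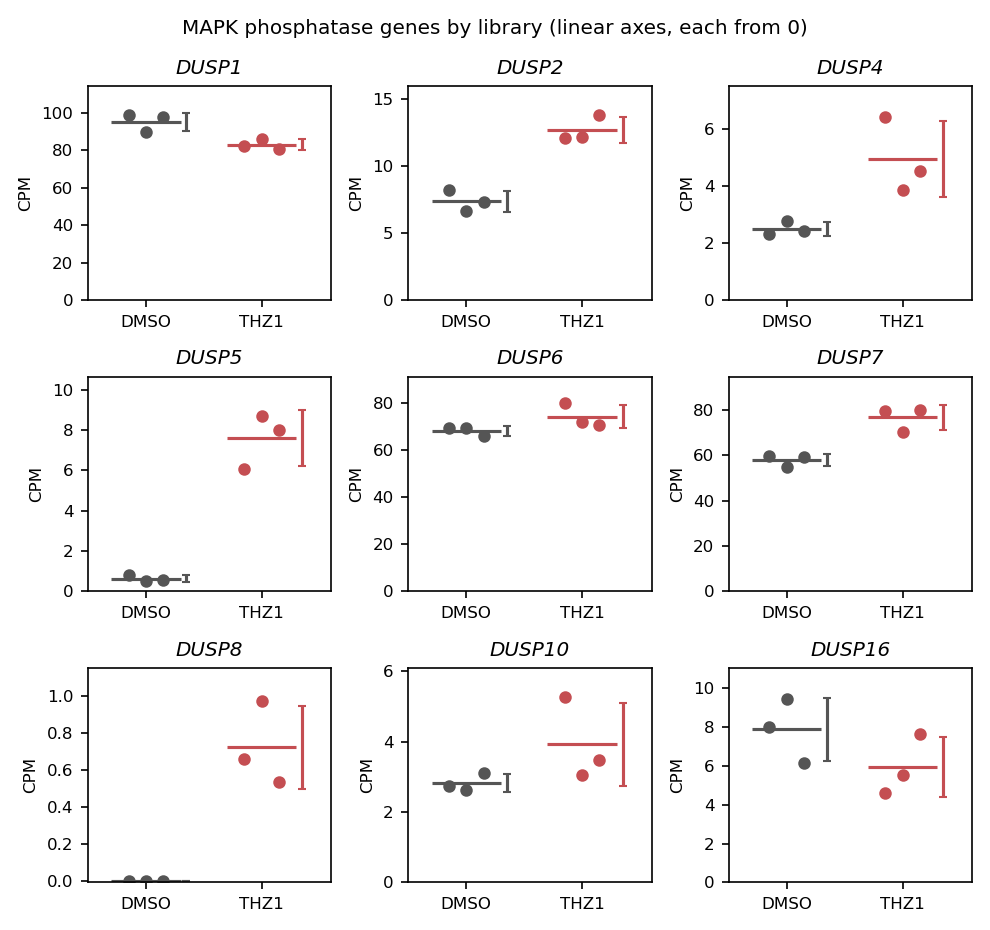
Each panel shows one gene, with CPM (scaled by TMM) of the 3 DMSO-treated libraries (grey) and the 3 THZ1-treated libraries (red) as points, the mean as a horizontal line and the SD as a bar beside it. DUSP5 rose from 0.636 to 7.60 CPM, DUSP8, not in the main test, was at 0 and at 0.720 CPM, and only the DUSP10 and DUSP16 points of the treatments overlap.

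Among the nuclear inducible members, DUSP1 was the most abundant. DUSP1 (ENSG00000120129, chr5:172195099-172198198 on the minus strand of GRCh37) had 1192, 1096 and 1157 counts in the DMSO-treated libraries and 625, 622 and 605 in the THZ1-treated libraries, or 95.3 ± 4.79 and 83.1 ± 2.72 CPM (SD, n = 3). Every THZ1-treated library was below every DMSO-treated library, by a margin that was small beside the level. The log2 fold change was −0.20 (SE 0.08, 95% interval −0.36 to −0.04, edgeR's adjusted p = 0.018), a ratio of 0.871. The call was lost with upper quartile factors (log2 fold change −0.01, adjusted p = 0.945), with RLE factors (0.115), with DESeq2 (0.0584), with at least 10 counts required in every library (0.416), and without DMSO replicate 1 (0.0661) or THZ1 replicate 3 (0.0589). A lncRNA on the opposite strand, ENSG00000253736, covers DUSP1 without sharing exons, and it went from 0, 1 and 1 counts to 10, 7 and 8, few beside the counts of DUSP1.

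DUSP2, a nuclear phosphatase of activated lymphocytes, rose with THZ1. The gene (ENSG00000158050, chr2:96808908-96811179, minus strand) had 99, 81 and 87 counts with DMSO and 92, 88 and 103 with THZ1, which at the lower depth of the THZ1-treated libraries were 7.39 ± 0.774 and 12.7 ± 0.942 CPM. Raw counts were thus alike and the levels were separated without overlap. This was a log2 fold change of 0.78 (SE 0.16, 95% interval 0.45 to 1.11, edgeR's adjusted p = 4.27e-05), and the call was kept in all 16 alternatives run.

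DUSP4, a nuclear phosphatase of ERK and JNK, was scarce and its direction depended on the table. The gene (ENSG00000120875, chr8:29190581-29208201, minus strand) had 28, 34 and 29 counts with DMSO and 49, 28 and 34 with THZ1, or 2.52 ± 0.243 and 4.95 ± 1.33 CPM. THZ1 replicate 1 was the highest library, and the lowest THZ1-treated library was still above all DMSO-treated libraries. From the counts, the log2 fold change was 0.98 (SE 0.26, 95% interval 0.46 to 1.5, edgeR's adjusted p = 0.000767). In the deposited FPKM table, where 35.6% of all genes were higher and 44.2% lower and 3 of 8 members were called in each direction, the gene went the other way, from 1.64 ± 0.0631 to 0.907 ± 0.409 FPKM, with a log2 difference of −0.49 (limma, adjusted p = 0.0285). Libraries of one treatment have almost the same set of values in that table. Their sorted log2 values were a median of 0.0015 to 0.0017 apart, against 0.00649 to 0.0215 for log2(CPM + 1) from the counts. Between treatments the medians were 0.087 to 0.0902 in the table and 0.194 to 0.211 from the counts, so the scales are not alike. A normalization that made replicates alike is not named in the sources used here, and its part in the SDs, limma p-values, sums and shares given on the FPKM scale was not tested.

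DUSP5, a nuclear phosphatase that acts on ERK, had the largest change among the members tested. The gene (ENSG00000138166, chr10:112257665-112271291, plus strand) had 10, 6 and 7 counts in the DMSO-treated libraries and 46, 63 and 60 in the THZ1-treated libraries, or 0.636 ± 0.172 and 7.60 ± 1.39 CPM. The lowest THZ1-treated library stood far above the highest DMSO-treated library. DUSP5 passed the filter on low counts through the THZ1-treated libraries alone. The log2 fold change was 3.55 (SE 0.30, 95% interval 2.93 to 4.17, edgeR's adjusted p = 9.5e-13), an 11.7-fold rise that was larger than that of 88.3% of genes tested. In the deposited FPKM table the rise was 4.84-fold, from 1.35 ± 0.252 to 6.52 ± 1.49 FPKM. In that table the DMSO-treated libraries stay above 0 even for genes with no counts, and EPHA2, at 0 counts, is listed at 0.260, 0.251 and 0.275 FPKM. Leaving out each library in turn gave log2 fold changes of 3.37 to 3.76. DUSP5-DT, a lncRNA that starts upstream of DUSP5 on the other strand without overlapping it, went from 0 counts in all DMSO-treated libraries to 12, 10 and 12, at least 6.02-fold higher against the floor. The pseudogene DUSP5P1 had 23, 26 and 32 counts with DMSO and 19, 19 and 13 with THZ1 (log2 fold change 0.03, 95% interval −0.61 to 0.67, edgeR's adjusted p = 0.935).

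The cytoplasmic pair was abundant in both treatments. DUSP6 (ENSG00000139318, chr12:89741012-89746278, minus strand), the feedback phosphatase most used as a readout of ERK activity, had 835, 844 and 778 counts with DMSO and 606, 520 and 528 with THZ1, or 68.0 ± 1.99 and 74.1 ± 4.90 CPM. The libraries did not overlap, but the gap was narrow. DUSP6 had a log2 fold change of 0.12 (SE 0.08, 95% interval −0.04 to 0.29, edgeR's adjusted p = 0.154), and it was −0.12 with library sizes alone and 0.32 with upper quartile factors (adjusted p = 0.000637), and it was called higher in 3 of 16 alternatives. A lncRNA on the opposite strand, ENSG00000274021, shares exonic sequence with DUSP6 and is absent from the count table.

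DUSP7 (ENSG00000164086, chr3:52082935-52090587, minus strand), the near relative of DUSP6, rose. It had 721, 668 and 700 counts with DMSO and 606, 508 and 599 with THZ1, or 57.8 ± 2.66 and 76.7 ± 5.52 CPM. All THZ1-treated libraries were above all DMSO-treated libraries. DUSP7 had a log2 fold change of 0.41 (SE 0.08, 95% interval 0.24 to 0.58, edgeR's adjusted p = 4.16e-05), and it was 0.16 with library sizes alone (adjusted p = 0.0746).

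Of the phosphatases that prefer JNK and p38, none was called in the main edgeR test. DUSP8 (ENSG00000184545, chr11:1575281-1593501, minus strand), best known from brain and heart, had 0 counts in all 3 DMSO-treated libraries and 5, 7 and 4 in the THZ1-treated libraries (0.720 ± 0.224 CPM). It was too low for the main test, and against the floor of a DMSO-treated library the level with THZ1 was at least 2.85-fold higher. DUSP8 entered the tests with DESeq2 and with no filter on low counts, and it was called higher in both. Its pseudogene DUSP8P5 was more abundant than the gene itself, with 36, 26 and 22 counts against 125, 142 and 158 (log2 fold change 3.03, SE 0.19, edgeR's adjusted p = 3.53e-16). Reads can be shared between such copies, and the lncRNA KRTAP5-AS1, which overlaps the DUSP8 locus on the other strand, went from 0 counts to 11, 20 and 3, so the DUSP8 value is uncertain.

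DUSP10 (ENSG00000143507, chr1:221874766-221915431, minus strand), a JNK and p38 phosphatase, had 33, 32 and 37 counts with DMSO and 40, 22 and 26 with THZ1, or 2.82 ± 0.263 and 3.93 ± 1.17 CPM. The lowest THZ1-treated library lay among the DMSO-treated libraries. The log2 fold change was 0.48 (SE 0.26, 95% interval −0.06 to 1.02, edgeR's adjusted p = 0.092), against a difference of −0.48 in the FPKM table (limma, adjusted p = 0.0654). DUSP10 was called higher with upper quartile factors (0.67, adjusted p = 0.0201) and with at least 10 counts in every library (0.61, adjusted p = 0.0272). It was 0.23 with library sizes alone (adjusted p = 0.41) and 0.20 without THZ1 replicate 1, its highest library (adjusted p = 0.547).

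DUSP16 (ENSG00000111266, chr12:12626216-12715797, minus strand), a JNK phosphatase that shuttles between nucleus and cytoplasm, had 97, 115 and 73 counts with DMSO and 35, 40 and 57 with THZ1, or 7.87 ± 1.64 and 5.92 ± 1.54 CPM. DMSO replicate 3 and THZ1 replicate 3 overlapped, and the spread within each treatment was nearly as large as the difference. DUSP16 had a log2 fold change of −0.41 (SE 0.21, 95% interval −0.83 to 0.01, edgeR's adjusted p = 0.0635). It was called lower with library sizes alone (−0.66, adjusted p = 0.00492), with no filter on low counts (−0.50, adjusted p = 0.0222), without DMSO replicate 3 (−0.58, adjusted p = 0.00598), without THZ1 replicate 3 (−0.65, adjusted p = 0.0142) and in the FPKM table (−1.16, limma, adjusted p = 0.00149). It was smaller without THZ1 replicate 1 (−0.26, adjusted p = 0.281), without DMSO replicate 2 (−0.28, adjusted p = 0.221) and with upper quartile factors (−0.22, adjusted p = 0.325). The lncRNA ENSG00000255670, on the opposite strand inside DUSP16, had at most 4 counts in any library. Another on that strand, ENSG00000290048, is absent from the count table.

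**Figure D2:**
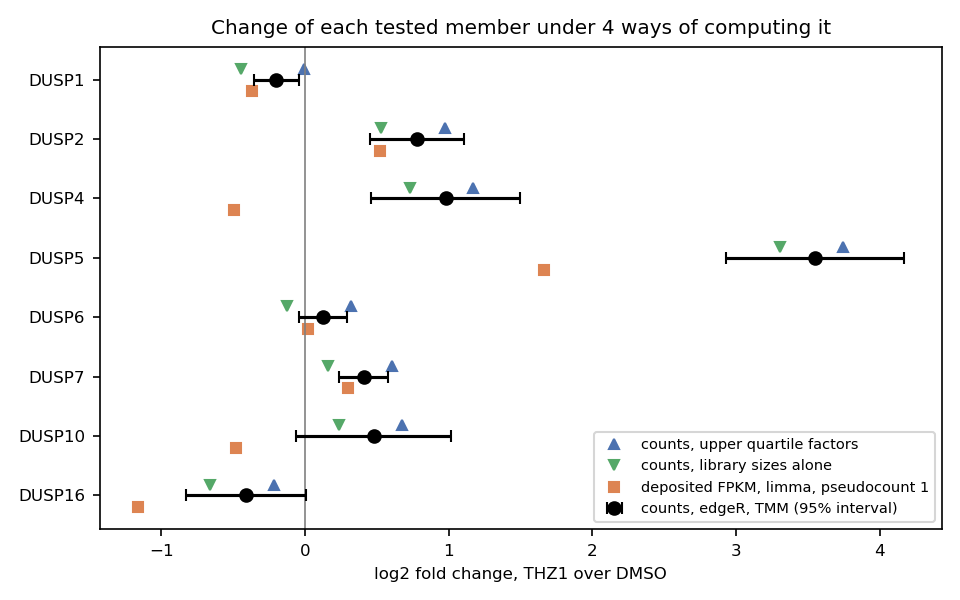
The log2 fold change of THZ1 over DMSO is plotted for the 8 members tested, from the counts with TMM (black, with the 95% interval), from the counts with upper quartile factors or library sizes alone (triangles), and as the difference of the deposited log2(FPKM + 1) values (squares). DUSP2, DUSP5 and DUSP7 are right of 0 in all 4, whereas DUSP4 and DUSP10 are right of 0 from the counts and left of it from the FPKM values, and DUSP6 crosses 0 with the scaling.

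Levels were compared between members per length, on the deposited FPKM scale. With DMSO the order was DUSP1 (136 ± 5.43 FPKM), DUSP6 (49.2 ± 2.43), DUSP7 (28.5 ± 1.33), DUSP2 (11.3 ± 1.18), DUSP16 (4.0 ± 0.531), DUSP10 (3.72 ± 0.373), DUSP4 and DUSP5. The neighbours DUSP16 and DUSP10 overlapped, as did DUSP4 and DUSP5. With THZ1 the order of the leading 4 was the same, at 105 ± 3.88, 49.9 ± 2.92, 35.3 ± 2.83 and 16.5 ± 1.42 FPKM, and DUSP5 came next. Below it, DUSP10 (2.46 ± 0.934 FPKM), DUSP16 (1.26 ± 0.513) and DUSP4 lay close together, and neighbours in that order overlapped.

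The make-up of the pool shifted away from DUSP1. The 8 members in the FPKM table summed to 235.7 ± 8.14 FPKM with DMSO and 217.9 ± 1.87 FPKM with THZ1. The direction of the sum depended on the table, since the counts per length of exons of all 9 members summed to 81.7 ± 2.98 RPKM with DMSO and 86.6 ± 0.971 RPKM with THZ1, also without overlap. DUSP1 made up 58.0%, 57.7% and 57.4% of the summed FPKM in the DMSO-treated libraries and 47.2%, 50.4% and 46.9% in the THZ1-treated libraries. The cytoplasmic pair DUSP6 and DUSP7 went from 33.0% ± 0.496 to 39.1% ± 1.89 of the summed FPKM, and DUSP5 from 0.571% ± 0.0930 to 3.0% ± 0.705. These shares did not overlap between treatments, and neither did the shares of DUSP1, DUSP5 and DUSP7 computed from the counts per length of exons, in which the share of DUSP6 did overlap. The share of DUSP5 from the counts went from 0.306% ± 0.0724 to 3.47% ± 0.663, a larger step than in the FPKM table. Other shares depended on the table. DUSP4 fell from 0.699% to 0.415% of the summed FPKM and rose from 0.425% to 0.785% from the counts, each without overlap. The members that prefer JNK and p38 fell together from 3.28% to 1.705% of the summed FPKM. From the counts, with DUSP8 included, they had 2.58% and 2.73%, with overlap.

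**Figure D3:**
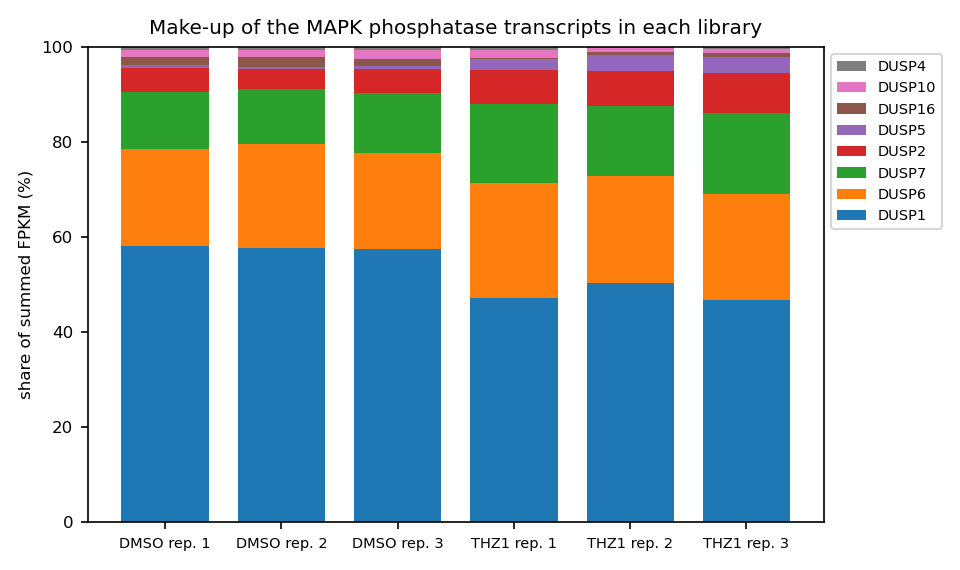
Each bar is one library, divided into the share (%) of the summed FPKM that each of the 8 members in the deposited FPKM table holds. DUSP1 takes 57.4% to 58.0% in the DMSO-treated libraries and 46.9% to 50.4% in the THZ1-treated libraries, while the shares of DUSP7, DUSP2 and DUSP5 are wider with THZ1.

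A ratio of raw counts within a library does not depend on scaling. The pairs below were chosen after the values were seen. The ratio of DUSP1 to DUSP7 was 1.65, 1.64 and 1.65 in the DMSO-treated libraries and 1.03, 1.22 and 1.01 in the THZ1-treated libraries. The ratio of DUSP1 to DUSP6 was 1.43, 1.30 and 1.49 against 1.03, 1.20 and 1.15. DUSP1 thus lost ground to both cytoplasmic genes, with no overlap between treatments. The levels of 84.7% of all genes tested did not overlap either, and ratios of other gene pairs were not computed as a background. The ratio of DUSP6 to DUSP7 was 1.16, 1.26 and 1.11 against 1.00, 1.02 and 0.881, which places DUSP6 between them. Such ratios show unequal change and do not say which gene moved.

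The promoters of the called members were read to see what sequence the genes called in opposite directions carry at their starts. The call of DUSP1 as lower was lost in 6 of 16 alternatives, and that of DUSP7 as higher in 1. RefSeq promoters (GRCh38.p14) were found for 7 of the 9 members, and DUSP4 and DUSP5 had no entry. The 250 bases before the start are shown for DUSP1, called lower, and for DUSP2 and DUSP7, called higher. They lie at chr5:172771196-172771445, chr2:96145441-96145690 and chr3:52056572-52056821, all on the minus strand, and are written 5′ to 3′ along the gene. Capitals mark the cyclic AMP response element TGACGTCA and its core TGACG, the E-box CACGTG and the TATA box TATAAA, on either strand.
DUSP1: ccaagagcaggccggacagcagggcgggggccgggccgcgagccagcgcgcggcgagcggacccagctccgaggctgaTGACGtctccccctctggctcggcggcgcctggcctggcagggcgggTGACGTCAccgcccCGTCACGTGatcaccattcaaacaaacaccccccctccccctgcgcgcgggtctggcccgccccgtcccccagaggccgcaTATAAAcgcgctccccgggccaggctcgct
DUSP2: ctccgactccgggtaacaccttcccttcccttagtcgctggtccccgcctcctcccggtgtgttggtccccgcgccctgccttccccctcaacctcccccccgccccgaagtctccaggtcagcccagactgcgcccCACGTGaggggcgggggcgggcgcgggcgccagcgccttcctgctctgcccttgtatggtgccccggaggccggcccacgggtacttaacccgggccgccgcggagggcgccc
DUSP7: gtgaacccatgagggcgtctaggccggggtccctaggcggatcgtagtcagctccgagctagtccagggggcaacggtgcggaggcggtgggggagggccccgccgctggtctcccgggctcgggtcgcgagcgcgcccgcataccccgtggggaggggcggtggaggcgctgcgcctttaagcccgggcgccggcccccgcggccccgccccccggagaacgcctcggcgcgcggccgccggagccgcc

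DUSP1 held 1 full cyclic AMP response element, which begins 125 bases before the gene start, and 4 matches to the core, 2 of them within the full element because it reads alike on both strands. It also held 1 E-box, which overlaps a core match, and 1 TATA box 30 bases before the start. DUSP2 held 1 E-box, and DUSP7 none of these motifs. DUSP8, not in the main test and with counts in the THZ1-treated libraries alone, held 2 full elements, 118 and 74 bases before its start, whereas DUSP6, DUSP10 and DUSP16 held none. Among 35116 promoter windows of the same length, 1.65% held TGACGTCA, 21.2% TGACG, 6.34% CACGTG and 10.7% TATAAA. The GC box GGGCGG, which is not in capitals, matched 4 times in DUSP1, 3 times in DUSP2 and 2 times in DUSP7, and 42.6% of all windows held it. The AP-1 motif TGANTCA, the ETS motif CCGGAA and the serum response motif CArG were also searched on both strands and matched in none of the 7 members with a window, while 6.57%, 14.5% and 1.16% of all windows held them. The CCAAT box (32.0% of all windows) matched in DUSP6, DUSP8 and DUSP10, and the loose NF-kB consensus (9.96%) in DUSP7. All 3 windows were rich in G and C (74.4%, 74.0% and 78.4%, with a median of 58.0% over all windows). The motifs were chosen after the values were seen, and a match is a string of letters and not a measured binding site.

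The relatives of the members moved in both directions. DUSP9, the third cytoplasmic ERK phosphatase, had 0 counts in all DMSO-treated libraries and 3, 9 and 4 with THZ1, and was not tested. STYXL1, a catalytically dead relative, was lower (log2 fold change −0.52, edgeR's adjusted p = 0.00449), although its libraries overlapped and the call was lost with upper quartile factors (−0.33, adjusted p = 0.0656). Of 17 atypical dual-specificity phosphatases, which lack the MAP kinase docking domain, 10 were tested. Of these, 4 were higher, 4 lower and 2 not called, beside 43.5% higher and 41.1% lower over all genes. The median log2 fold change of the 10 was −0.24. Their extremes were DUSP13, at 0 counts in all DMSO-treated libraries and at least 6.04-fold higher with THZ1, and STYX, another dead relative (−1.07, SE 0.11). DUSP13 passed the filter on low counts only through the THZ1-treated libraries. The number called higher and the median of the 10 include this effect of the filter.

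Other phosphatases that act on MAP kinases, the MAP kinases and their own kinases held genes called in both directions, to be read against the 43.5% of all genes that were higher and the 41.1% that were lower. Of 6 such phosphatases tested, 1 was higher and 4 were lower, or 2 and 2 with upper quartile factors. PPM1D, which acts on p38 and is known as a p53 target, was the one that rose (31.8 ± 1.21 to 85.2 ± 1.05 CPM, log2 fold change 1.42, SE 0.09), and PTPN7, a lymphoid phosphatase of ERK and p38, had the lowest log2 fold change (−0.50, SE 0.09). Of 9 MAP kinases tested, 3 were higher and 6 lower (1 and 6 with library sizes alone), from MAPK11 (p38 beta, 1.07, SE 0.18) to MAPK9 (JNK2, −2.23, SE 0.12), which went from 45.6 ± 0.774 to 9.69 ± 1.44 CPM. Of 7 MAP kinase kinases, 2 were higher and 4 lower (0 and 5 with library sizes alone, where MAP2K7 lost its call at an adjusted p of 0.0879), from MAP2K7, a kinase of JNK (0.39, SE 0.08), to MAP2K6, a kinase of p38 (8.61 ± 0.771 to 1.12 ± 0.130 CPM, log2 fold change −2.93, SE 0.27). The median log2 fold change was −0.33, −0.55 and −0.49 in these groups. No called gene of these groups changed direction with upper quartile factors or with library sizes alone, but several lost or gained a call as given.

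Genes that like the phosphatases restrain ERK signalling, or that carry its output, were also listed, and ERK signalling is known to induce several of them. Of 12 tested, 8 were higher, 1 was lower and 3 were not called, beside 43.5% higher over all genes, with a median log2 fold change of 1.68. EPHA2, a receptor tyrosine kinase, had 0 counts in all DMSO-treated libraries and 42, 31 and 29 with THZ1, at least 18-fold higher, whereas the transcription factor ETV5 was lower (−0.33, SE 0.12), a call that was lost with upper quartile factors (−0.14, adjusted p = 0.265). EPHA2 leads the group by its fitted value, which depends on the prior count. SPRED3 had 5, 7 and 3 counts with DMSO and 64, 75 and 79 with THZ1. Like EPHA2, it passed the filter on low counts only through the treatment in which it was high. EPHA4, with 6, 1 and 3 counts with DMSO and 0 in all THZ1-treated libraries, was not tested. The number called higher and the median of the group include this effect of the filter. IER3, an early response gene named after its values were seen, had the highest log2 fold change among the genes with counts in both treatments (6.34 ± 0.700 to 242.6 ± 31.0 CPM, 5.26, SE 0.11), above the bound of 4.17 for EPHA2. Proteins that bind AU-rich elements and control how long such short-lived messages last also changed at the transcript level. Of 6 tested, 4 were higher and 2 lower, beside 43.5% higher and 41.1% lower over all genes. They ran from ZFP36L1, which speeds decay (127 ± 7.65 to 1932 ± 71.9 CPM, log2 fold change 3.93, SE 0.08), to HNRNPD, which also binds such elements (735 ± 25.4 to 158 ± 7.59 CPM, −2.22, SE 0.07). Their part in the levels of the phosphatase messages was not tested.

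**Figure D4:**
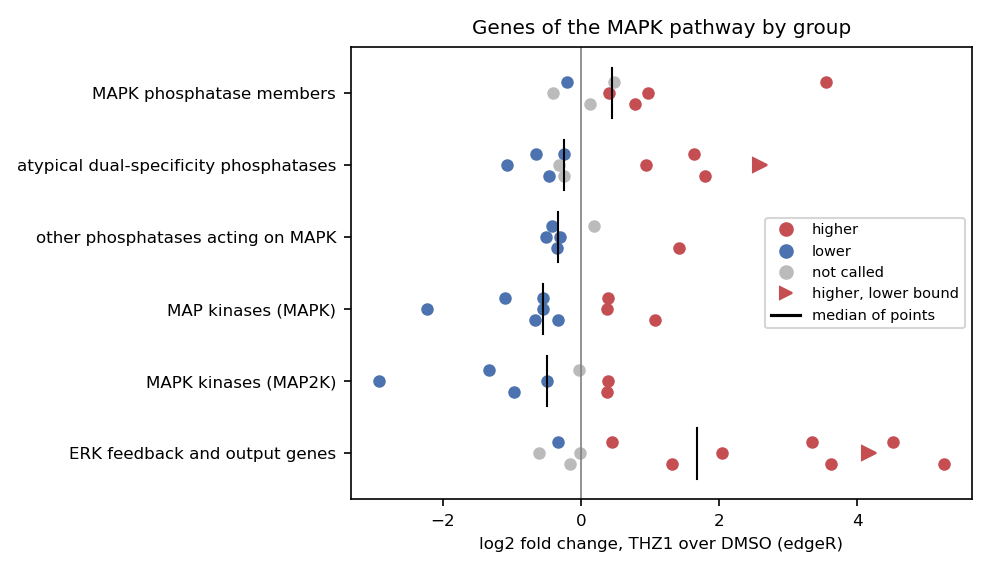
Each point is a tested gene, placed by its log2 fold change of THZ1 over DMSO and coloured by its call, with the group median as a black line. Triangles are lower bounds for DUSP13 and EPHA2, which had 0 counts with DMSO. The members spread around a median of 0.44 with DUSP5 apart at 3.55, and of the 6 groups drawn the ERK feedback and output genes have the highest median (1.68).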

How the data were processed

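RNA-SEQ was analysed in 3 DMSO-treated and 3 THZ1-treated NALM6 libraries, grouped by their labels. The authors deposited raw counts per gene, from filtered reads mapped to GRCh37 with STAR and counted with htseq-count, and a table of 16730 genes with RSEM values, read as log2(FPKM + 1), in which no DMSO-treated value is 0 and replicates have almost the same sorted values. The annotation and strand setting are not given in the sources used here. Coordinates are from GENCODE on GRCh37. The authors' p-values, FDR and log2 fold changes in that table were not used.

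Genes were filtered with filterByExpr (minimum count 10, total 15), scaled by TMM and tested with edgeR 4.0.16 (quasi-likelihood, two-sided, Benjamini-Hochberg over 16622 genes; a call is an adjusted p below 0.05). Deposited values were tested with limma 3.58.1. DESeq2 1.42.0 was an alternative. R 4.3.3 and Python 3.11.15 were used, and scripts were tested on simulated data. All 9 members were named, with DUSP9 and, from each other list, the called genes with the highest and lowest log2 fold change. Exceptions, all chosen after their values were seen, are DUSP5-DT, DUSP5P1, DUSP8P5, CD14, MPO, ITGAM, IER3, SPRED3, EPHA4, the T cell markers and the overlapping lncRNAs. The members and lists were chosen with earlier results of these data known. Replicates differed beyond counting noise (chi-square per gene 1.77 to 8.58).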

Additional observations from a re-analysis of the deposited data

How the results depend on the processing

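DUSP2 kept its call in 16 alternatives and DUSP5 in 15, DUSP5 being absent where 10 counts were required in every library. The number of members lower with THZ1, 1 as reported, was 0 with RLE factors, upper quartile factors, DESeq2 or at least 10 counts in every library, 2 with library sizes alone or no filter, and 3 with the deposited FPKM values under limma (pseudocount 1, pseudocount 0.1, or a mean FPKM of at least 1). The number higher, 4 as reported, was 6 with upper quartile factors, 5 with RLE factors, DESeq2, at least 10 counts in every library or no filter, and 3 with library sizes alone or the FPKM values. DUSP8, too low for the main test, is among the 5 with DESeq2 and with no filter. Over all genes, 9218 were higher and 6529 lower with DESeq2, and 9927 and 7711 with no filter. With at least 10 counts in every library they were 5148 and 5420. With the FPKM values they were 5948 and 7400 (pseudocount 1), 5894 and 7297 (pseudocount 0.1), and 5809 and 7334 (mean FPKM of at least 1). Without each library in turn, there were 0 to 2 members lower (0 without DMSO replicate 1, 2 without DMSO replicate 3) and 4 higher. Over all genes, 7294 to 7489 were then higher and 6675 to 6899 lower. With a log2 fold change of at least 1.5, 4088 genes were higher and 2142 lower, against 7227 and 6828 at any fold, and 1 member was higher and 0 lower, since the threshold removes small changes by construction.

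DUSP6 reversed to −0.12 with library sizes alone. In the FPKM table DUSP4 reversed to −0.49 (pseudocount 1, and also with a mean FPKM of at least 1) and −0.87 (pseudocount 0.1), and DUSP10 to −0.48 and −0.64. The cause was not tested. With a replicate block, 7186 genes were higher and 6794 lower, with 4 members higher and 1 lower. The deviations of same-numbered libraries correlated at −0.004, 0.001 and 0.021. No shared deviation was thus seen, which cannot show whether same-numbered samples were handled together. At about 30 counts per library (DUSP4, DUSP10), the 95% intervals span about 1 log2 unit, and intervals and floors cover counting error and library spread only.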
